A study of Mus musculus with 10 samples.

Results

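The genes described here are 9 genes used to follow the birth of granule neurons in the dentate gyrus: Hopx, Eomes, Neurod1, Dcx, Sox11, Sox4, Igfbpl1, Draxin and Tbr1. They were chosen by name, by matching each Ensembl identifier of the count table, without its version, to a mouse gene symbol. All 9 were found among 56884 rows, and all 9 had enough counts to be among the 17622 genes tested. Hippocampal RNA was sequenced from 10 ovary-intact female P301S mice, also called PS19, with 1 library per mouse. Every mouse carried a transgene for human Tau with the P301S mutation, expressed from the mouse Prnp promoter, so there was no group without Tau pathology. From 6 months of age, 5 females carried a subcutaneous implant filled over 10 mm with dihydrotestosterone (DHT, an androgen that aromatase cannot turn into estrogen) and 5 carried an empty, or void, implant. Tissue was taken 12 weeks later, at 9 to 9.5 months. The question was what the androgen changes in the hippocampus of females with tauopathy. Mice are named by the numbers in their labels.

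The dentate gyrus is a place where the adult rodent brain goes on making neurons. Radial glia-like stem cells divide to give intermediate progenitors, these give neuroblasts and immature neurons, and the survivors mature into granule neurons. Each step has characteristic genes, of which doublecortin (Dcx) is the most used marker of newborn neurons. Most of these genes are also used by other cells, and hippocampal RNA is a mixture of all of them, so fewer cells of a type and less RNA per cell cannot be told apart here.

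Total counts per mouse ranged from 27188854 to 47113661. Levels are given as CPM, counts scaled to a common library size after TMM normalization. Genes were compared with edgeR's quasi-likelihood test, and a gene was called where its p, adjusted by Benjamini and Hochberg's method over all genes tested, was under 0.05. The void and DHT libraries carry separate runs of library numbers, so an effect of library order and one of treatment cannot be told apart. The genes of mature granule neurons were present in every mouse, where the 10 markers on that list summed to between 685 and 959 CPM with void and between 650 and 899 CPM with DHT. Markers of choroid plexus, the tissue that makes cerebrospinal fluid, stood apart between the groups. Their 12 genes summed to between 361 and 3269 CPM with void, lowest in Void mice 11 and 5, and to between 3908 and 5742 CPM with DHT.

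Of the 9 neurogenesis genes, 1 was higher with DHT and 0 were lower. The one called was Hopx, a gene of quiescent stem cells. Dcx and Neurod1 had the largest negative log2 fold changes of the set, and neither passed. Among all genes tested 5.22% were called higher and 0.261% lower, or 5.48% in either direction. With a log2 fold change beyond 1 required as well, 0 of the 9 were called, against 2.17% of all genes higher and 0.0227% lower. At an unadjusted p under 0.05, 1 of the 9 was higher and 2 were lower, against 13.1% and 4.22% of all genes. The median log2 fold change of the set was -0.05, and that of all genes was 0.01. DESeq2 also called Hopx higher and it called 2 genes lower, Dcx and Neurod1, where it called 5.89% of its 20716 tested genes higher and 1.09% lower.

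**Figure D1:**
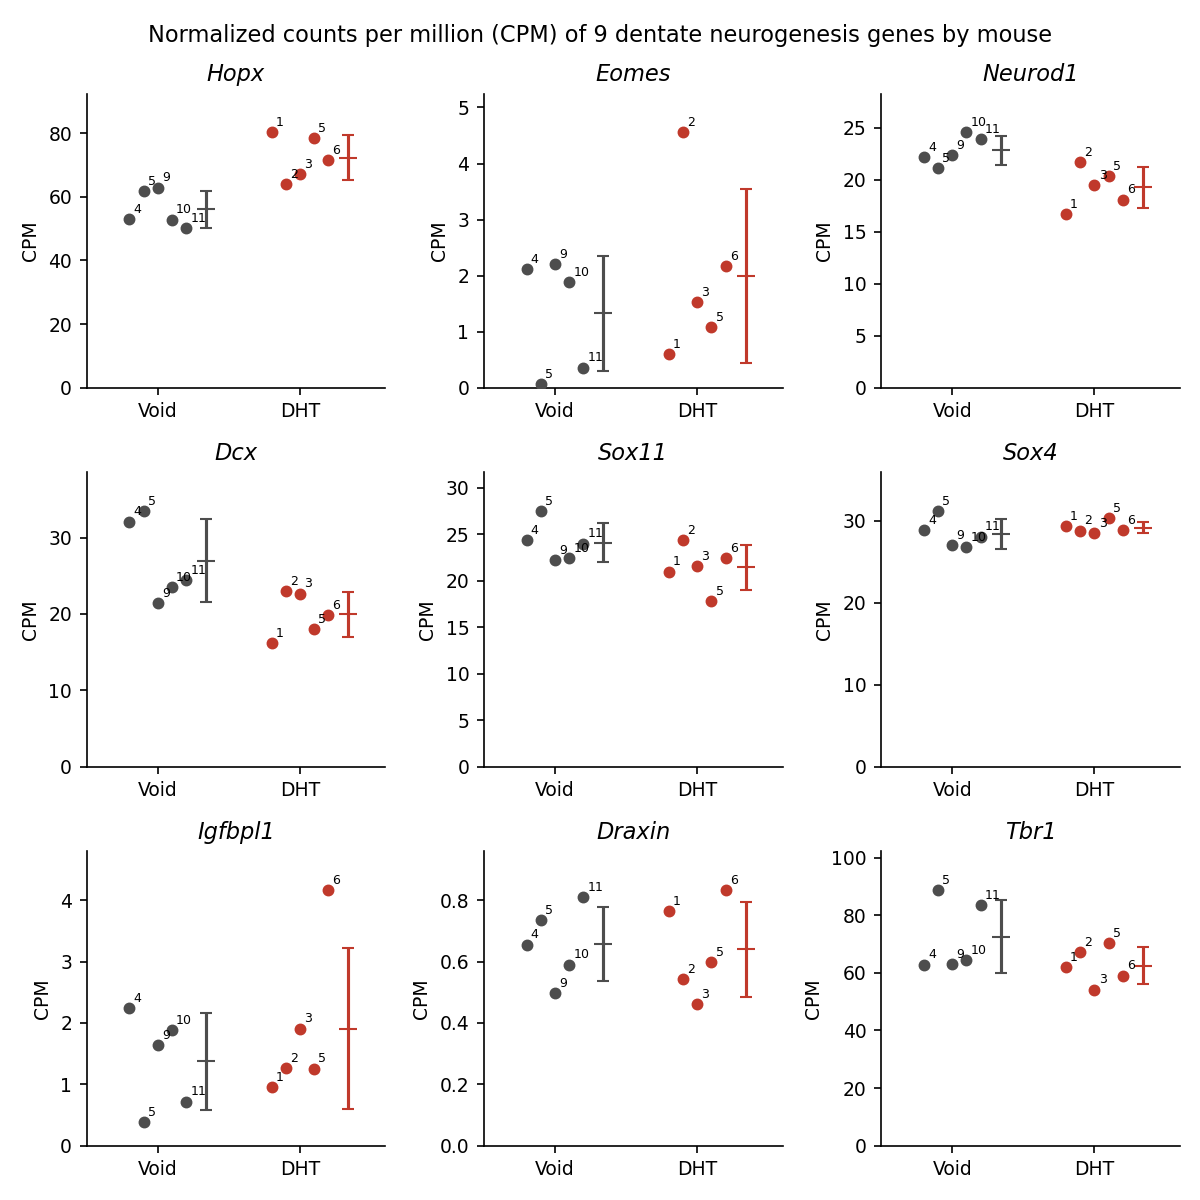
Level of each of the 9 genes in CPM (vertical axis, from 0) in every mouse, grey for void and red for DHT, with the mouse number beside each point and the mean and SD of 5 mice as a bar. Hopx is the only panel in which every DHT point lies above every void point, from 64.1 to 80.4 CPM against 50.2 to 62.9.

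Hopx (ENSMUSG00000059325) encodes a small homeodomain protein that does not itself bind DNA, and it marks quiescent radial glia-like stem cells as well as many astrocytes. With void it was at 52.9, 61.8, 62.9, 52.9 and 50.2 CPM in mice 4, 5, 9, 10 and 11. With DHT it was at 80.4, 64.1, 67.2, 78.5 and 71.5 CPM in mice 1, 2, 3, 5 and 6. Every DHT-treated female was above every void-treated female, and the gap between the nearest pair, Void mouse 9 and DHT mouse 2, was narrow. Such a separation, in this direction, was seen in 5.39% of all genes tested. The means were 56.1 ± 5.78 CPM (SD, n = 5) with void and 72.4 ± 7.05 CPM (SD, n = 5) with DHT. The log2 fold change was 0.37 (SE 0.09, 95% interval 0.18 to 0.55; edgeR's quasi-likelihood test, adjusted p = 0.0282). Hopx ranked 645 by p among the genes tested.

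The call for Hopx was lost in 5 of 10 fits that left out a single mouse. In edgeR the adjusted p was 0.0775 without Void mouse 10, 0.111 without Void mouse 11 and 0.0780 without Void mouse 4. It was 0.106 without DHT mouse 1 and 0.0825 without DHT mouse 5. The fold change itself moved little, from 0.29 to 0.41 on the log2 scale. Without Void mice 5 and 11 together, the pair lowest in choroid plexus genes, it was 0.34 with an adjusted p of 0.135. In that fit edgeR called 0 genes of the whole table, where 1804 were higher and 894 lower at an unadjusted p under 0.05.

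Other cell types differed with the same comparison. Among 8 astrocyte markers 7 had a positive log2 fold change and 1 was called, Gfap, the filament protein of reactive astrocytes, with a log2 fold change of 1.18. Their summed level overlapped between groups, from 5866 to 8224 CPM with void and from 6719 to 8503 CPM with DHT. With a score of the astrocyte markers other than Gfap as a covariate, Hopx was at 0.27 on the log2 scale (SE 0.08; edgeR, unadjusted p = 0.0082, adjusted p = 0.160). Adjusting for a choroid plexus score in the same way gave 0.27 as well (SE 0.14; edgeR, unadjusted p = 0.0807, adjusted p = 0.770). Neither covariate fit called any gene of the whole table. All 12 choroid plexus genes had a positive log2 fold change and 4 were called, where 5.22% of all genes tested were called higher. Microglial markers were higher as well, with 6 of 10 called and sums that did not overlap, from 460 to 550 CPM with void and from 661 to 996 CPM with DHT. The choroid plexus scores of the groups did not overlap, from -1.64 to 0.42 with void and from 0.60 to 1.02 with DHT, so treatment and choroid plexus content cannot be told apart. The astrocyte scores overlapped, from -1.22 to 0.96 with void and from -0.23 to 1.41 with DHT.

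**Figure D2:**
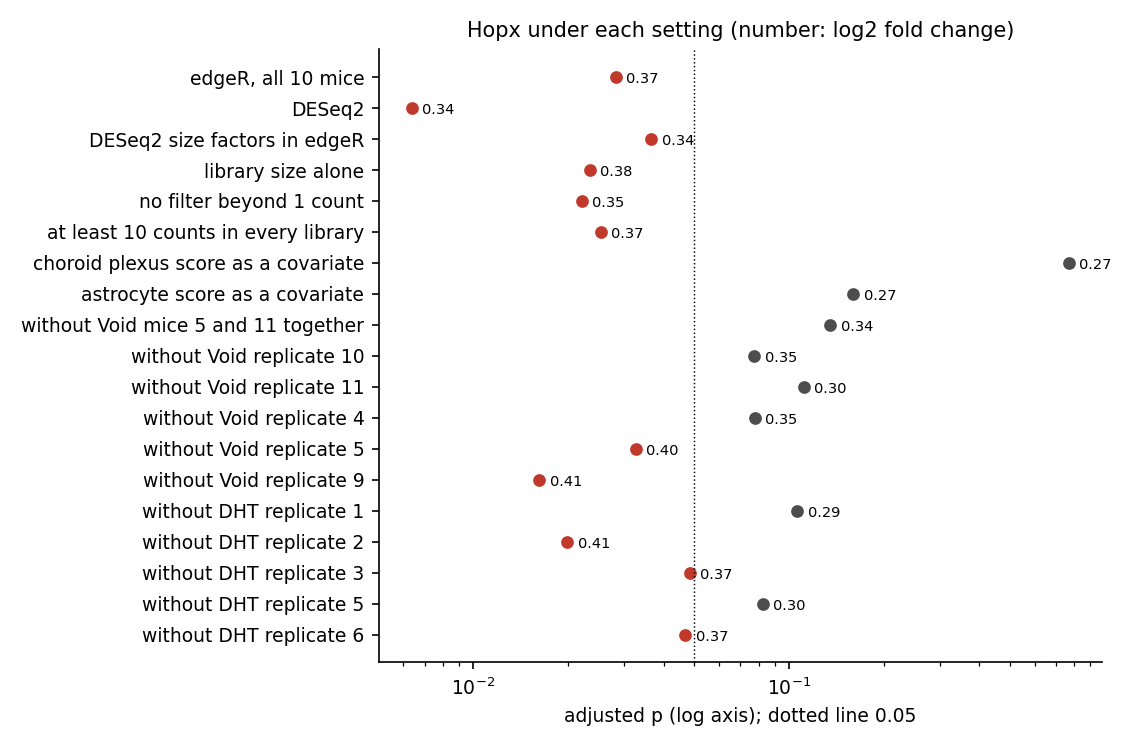
Adjusted p of Hopx (horizontal axis, logarithmic) under each processing setting, 1 point per setting with its log2 fold change printed beside it, red where the adjusted p is under 0.05 (dotted line). The log2 fold change stays between 0.27 and 0.41 while the adjusted p ranges from 0.00638 with DESeq2 to 0.770 with the choroid plexus covariate.

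The RefSeq promoter table, built on GRCm38.p6, holds sequences of 8 of the 9 genes. Hopx is shown because it is the gene that was called, and it has a pair of start sites. Each window covers the 250 bases before a start, written 5′ to 3′ on the gene's strand. The first is chr5:77115124-77115373 and the second chr5:77095268-77095517, both on the minus strand. Capitals mark a match to any of 4 short motifs searched on both strands: AGGTCA (the hexamer bound by many nuclear receptors), AGAACA (the hexamer of androgen and glucocorticoid response elements), CANNTG (the E-box of Neurod1 and related factors) and AACAAAG (a motif of Sox factors).
Hopx, first window: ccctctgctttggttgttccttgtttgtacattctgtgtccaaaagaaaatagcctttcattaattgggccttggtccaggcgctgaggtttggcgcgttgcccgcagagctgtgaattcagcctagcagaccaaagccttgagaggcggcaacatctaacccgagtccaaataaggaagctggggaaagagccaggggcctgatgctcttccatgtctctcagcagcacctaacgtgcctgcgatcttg
Hopx, second window: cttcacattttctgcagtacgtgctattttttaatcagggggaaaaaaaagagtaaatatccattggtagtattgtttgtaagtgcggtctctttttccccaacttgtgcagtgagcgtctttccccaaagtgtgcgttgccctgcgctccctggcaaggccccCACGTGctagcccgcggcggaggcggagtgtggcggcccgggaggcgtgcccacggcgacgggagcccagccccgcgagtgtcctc
The first window held none of the 4 motifs, and the second held a single E-box, CACGTG, 86 bases before the start. Of 32851 promoters of the same length, 14.0% held AGGTCA, 16.1% AGAACA, 66.2% an E-box and 5.03% AACAAAG. No window of the 8 genes held AGAACA. These are matches of letters only, with no measurement of binding.

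Eomes (ENSMUSG00000032446), also called Tbr2, encodes the T-box factor of intermediate progenitors. It was at 2.11, 0.0639, 2.20, 1.88 and 0.359 CPM in Void mice 4, 5, 9, 10 and 11. It was at 0.601, 4.56, 1.53, 1.08 and 2.17 CPM in DHT mice 1, 2, 3, 5 and 6. The highest and lowest mouse of each group lay far apart, with 2 counts in Void mouse 5 and 185 counts in DHT mouse 2, and the groups overlapped. The log2 fold change was 0.58 (SE 0.67, 95% interval -0.89 to 2.05), so a difference of either sign was within its error (edgeR's quasi-likelihood test, adjusted p = 0.745). The value moved widely with the processing, from 0.01 to 0.83 in fits that left out a single mouse. It was -0.08 without Void mice 5 and 11, -0.98 with the choroid plexus covariate and 1.92 with the astrocyte covariate (SE 0.55; edgeR, unadjusted p = 0.0049, adjusted p = 0.130). Eomes is used by cytotoxic lymphocytes too, and the 11 lymphocyte markers summed to between 0.0738 and 0.867 CPM with void and between 0.666 and 1.61 CPM with DHT. After group means were subtracted, Eomes and that sum had r = -0.276 (exact permutation test within groups, p = 0.620, adjusted p = 0.877). The sum rested on only 2 to 76 counts per mouse. What lymphocytes contributed to the Eomes values was not tested.

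Neurod1 (ENSMUSG00000034701) encodes a basic helix-loop-helix factor needed for new granule neurons to survive and mature. It was at 22.2, 21.1, 22.4, 24.6 and 23.9 CPM in Void mice 4, 5, 9, 10 and 11. In DHT mice 1, 2, 3, 5 and 6 it was at 16.7, 21.7, 19.5, 20.4 and 18.1 CPM. The groups overlapped only because DHT mouse 2 was above Void mouse 5: 4 of 5 DHT-treated females were below the lowest void-treated female. The means were 22.8 ± 1.41 and 19.3 ± 1.96 CPM (SD, n = 5 each). This was a log2 fold change of -0.24 (SE 0.08, 95% interval -0.42 to -0.07). By edgeR's quasi-likelihood test this had an unadjusted p of 0.0109 and an adjusted p of 0.116 over all genes. DESeq2 gave an adjusted p of 0.0376, and 0 of 10 edgeR fits that left out a mouse passed.

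Dcx (ENSMUSG00000031285) encodes a microtubule-binding protein of migrating neuroblasts and immature neurons. It was at 32.1, 33.5, 21.4, 23.5 and 24.4 CPM in Void mice 4, 5, 9, 10 and 11. It was at 16.2, 22.97, 22.7, 18.02 and 19.9 CPM in DHT mice 1, 2, 3, 5 and 6. Void mice 4 and 5 were well above all others, all 5 DHT-treated females were below the void median, and the groups overlapped because Void mouse 9 was below DHT mice 2 and 3. The means were 27.0 ± 5.45 and 19.9 ± 2.93 CPM (SD, n = 5 each), and the log2 fold change was -0.44 (SE 0.14, 95% interval -0.74 to -0.13). With edgeR's quasi-likelihood test the unadjusted p was 0.00925 and the adjusted p 0.106. DESeq2 gave -0.46 with an adjusted p of 0.0300. Leaving out each mouse moved the edgeR value between -0.51 and -0.35, with adjusted p from 0.0506 to 0.252. With the choroid plexus covariate it was -0.24 (SE 0.23), with an adjusted p of 0.922, and with the astrocyte covariate it was -0.42 (SE 0.16), with an adjusted p of 0.275.

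Dcx is shown here because its log2 fold change was the most negative of the 9. The window is chrX:143933125-143933374, minus strand, the 250 bases before the more downstream of its 2 listed starts. The capitals mark the Sox motif AACAAAG, 9 bases before the start.
Dcx: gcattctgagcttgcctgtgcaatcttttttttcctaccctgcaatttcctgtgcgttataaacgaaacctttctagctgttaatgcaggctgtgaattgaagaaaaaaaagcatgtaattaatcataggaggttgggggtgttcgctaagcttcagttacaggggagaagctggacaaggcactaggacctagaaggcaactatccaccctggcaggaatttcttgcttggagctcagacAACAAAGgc
No other window of the 8 genes held that motif, and neither Dcx window held an E-box.

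**Figure D3:**
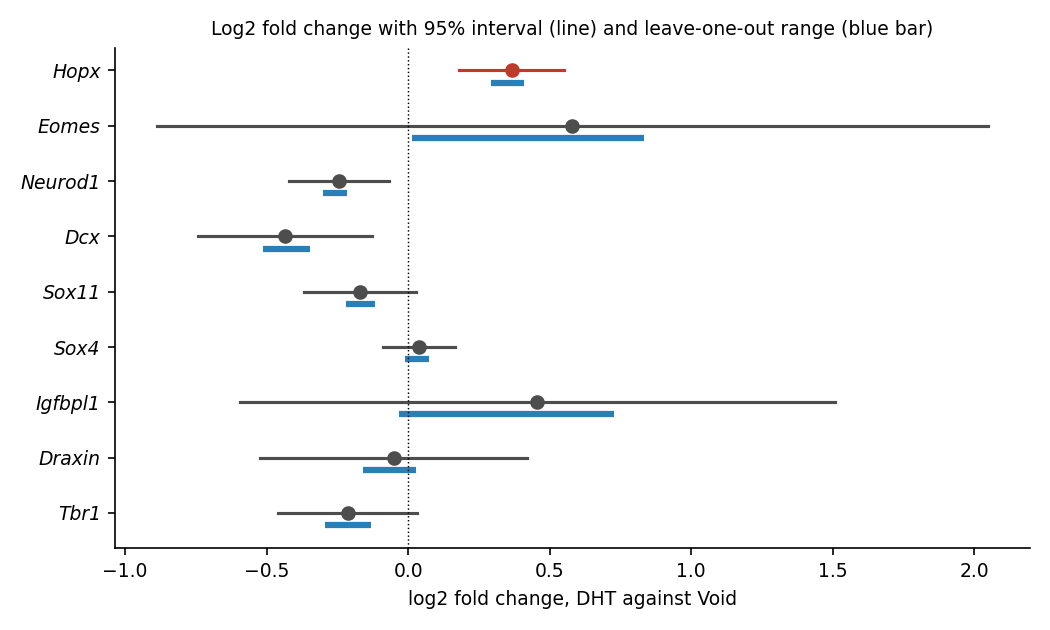
Log2 fold change of each gene, DHT against void (horizontal axis), with the 95% interval as a line and the range over fits that each left out a mouse as a blue bar; Hopx, the gene called, is in red. The intervals of Hopx, Neurod1 and Dcx lie to one side of 0, and that of Eomes runs from -0.89 to 2.05.

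To set Dcx against the granule neurons already present, its log2 ratio to Prox1, the homeobox gene of all granule neurons, was taken within each library. The ratio was -2.28, -1.82, -2.89, -2.96 and -3.11 in Void mice 4, 5, 9, 10 and 11. It was -3.43, -2.69, -2.56, -3.03 and -2.78 in DHT mice 1, 2, 3, 5 and 6. The ranges overlapped widely, with means of -2.61 ± 0.54 and -2.90 ± 0.34 (SD, n = 5 each). The difference of -0.29 had p = 0.365 in a two-sided exact permutation test over 252 regroupings, which cannot go below 0.00794. Without Void mouse 5 the difference was -0.09, and without Void mouse 11 it was -0.41. Prox1 itself was at 166 ± 34.4 and 148 ± 16.3 CPM (SD, n = 5 each). The log2 ratio of Eomes to Dcx, a progenitor gene against an immature neuron gene, was -4.95 ± 2.05 under void and -3.59 ± 0.88 under DHT (SD, n = 5 each; two-sided exact permutation test, p = 0.246). That difference was 1.36, and it was 0.57 without Void mouse 5, in which Eomes had 2 counts.

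Sox11 (ENSMUSG00000063632) and Sox4 (ENSMUSG00000076431) encode SoxC factors, which act together in the early neuronal program and upstream of Dcx. Sox11 was at 24.3, 27.5, 22.2, 22.4 and 24.0 CPM in Void mice 4, 5, 9, 10 and 11. It was at 20.98, 24.3, 21.6, 17.8 and 22.4 CPM in DHT mice 1, 2, 3, 5 and 6. The groups overlapped, with 3 DHT-treated females below every void-treated female. The log2 fold change was -0.17 (SE 0.09, 95% interval -0.37 to 0.03; edgeR's quasi-likelihood test, adjusted p = 0.382). Sox4 had the narrowest range of the 9 over all mice, from 26.8 to 31.2 CPM with void and from 28.5 to 30.3 CPM with DHT. Its log2 fold change was 0.04 (SE 0.06, 95% interval -0.09 to 0.17; edgeR's quasi-likelihood test, adjusted p = 0.822). The promoter of Sox4 is printed because it was the only window of the 8 genes with AGGTCA, which lies 162 bases before the start, with an E-box, CAGCTG, at 211 bases. It is chr13:28953700-28953949, minus strand.
Sox4: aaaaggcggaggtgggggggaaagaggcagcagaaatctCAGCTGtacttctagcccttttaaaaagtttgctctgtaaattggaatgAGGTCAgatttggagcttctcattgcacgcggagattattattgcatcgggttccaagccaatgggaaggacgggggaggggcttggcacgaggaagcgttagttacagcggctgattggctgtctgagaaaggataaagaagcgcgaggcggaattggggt

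Igfbpl1 (ENSMUSG00000035551) encodes a secreted protein related to IGF-binding proteins and is a marker of neuroblasts. It was at 2.24, 0.384, 1.64, 1.88 and 0.719 CPM in Void mice 4, 5, 9, 10 and 11. In DHT mice 1, 2, 3, 5 and 6 it was at 0.956, 1.26, 1.91, 1.26 and 4.17 CPM. Void mice 5 and 11, which were lowest in Eomes, were lowest here too, and DHT mouse 6 was above all others. The log2 fold change was 0.46 (SE 0.48, 95% interval -0.59 to 1.51; edgeR's quasi-likelihood test, adjusted p = 0.716), and without DHT mouse 6 it was -0.03. With the choroid plexus covariate it was -0.57 and with the astrocyte covariate 1.28 (SE 0.45; edgeR, unadjusted p = 0.0160, adjusted p = 0.220). Markers of the interneuron lineage of the subventricular zone, another site of adult neurogenesis, were highest in DHT mouse 6 and Void mouse 4. Their sums there were 62.8 and 57.0 CPM, and between 27.1 and 38.9 CPM in the other mice. Dlx1 was the most abundant of these markers, with a mean of 22.8 CPM in each group. Whether they came from that site or from interneurons of the hippocampus was not tested, nor was their part in the Igfbpl1 values. Draxin (ENSMUSG00000029005), a secreted axon guidance protein that blocks Wnt signalling, was near the limit of what could be counted, with 16 to 31 counts per mouse. Its level was between 0.496 and 0.809 CPM with void and between 0.461 and 0.834 CPM with DHT, and its log2 fold change was -0.05 (SE 0.22, 95% interval -0.52 to 0.42; edgeR's quasi-likelihood test, adjusted p = 0.948). A change of the size seen in Hopx would have lain within this interval.

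Tbr1 (ENSMUSG00000035033) encodes a T-box factor of postmitotic glutamatergic neurons that follows Eomes in the sequence of factors, and it is abundant in the neocortex. It was at 62.9, 88.8, 62.9, 64.5 and 83.6 CPM in Void mice 4, 5, 9, 10 and 11. It was at 61.9, 67.2, 54.2, 70.4 and 59.1 CPM in DHT mice 1, 2, 3, 5 and 6. Void mice 5 and 11 stood above the other 8 mice, and the remaining void-treated females lay within the DHT range. On the log2 scale the difference was -0.21 (SE 0.11, 95% interval -0.46 to 0.03; edgeR's quasi-likelihood test, adjusted p = 0.376). Markers of neocortex were highest in the same mice. Their 8 genes summed to 285 CPM in Void mouse 5 and 256 CPM in Void mouse 11, and to between 208 and 240 CPM in the other mice. What neocortical tissue contributed to the Tbr1 values was not tested.

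Levels can be compared between genes only per length, for which TPM was computed from GENCODE M21 exon lengths. Averaged over 10 mice, Hopx was highest at 194 TPM, followed by Tbr1 at 56.6, Neurod1 at 35.5 and Sox4 at 27.6 TPM. Sox11 was at 12.6 and Dcx at 8.55 TPM, and Igfbpl1 and Eomes were at 2.32 and 1.84 TPM. Draxin was last, at 0.585 TPM with void and 0.560 TPM with DHT. Hopx was above Tbr1 in 10 of 10 mice, and so was each of Tbr1, Sox4, Sox11 and Dcx above the gene that follows it. Neurod1 was above Sox4 in 9 of 10 mice, Igfbpl1 above Eomes in 8 and Eomes above Draxin in 7, so the order of the 3 lowest genes was not the same in every mouse.

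The mice of each group differed among themselves most in Eomes and Igfbpl1. After group means were subtracted, log2 CPM of the 9 genes gave 36 pairs. In an exact permutation test within groups, 0 pairs passed an adjusted p of 0.05, and 4 had an unadjusted p under 0.05. Dcx and Sox11 varied together with r = 0.705 (permutation p = 0.0240, adjusted p = 0.288) and Spearman's rho = 0.830 (permutation p = 0.00465, adjusted p = 0.168), and r was 0.619 without Void mice 4 and 5. Eomes and Igfbpl1 had r = 0.780 (permutation p = 0.0183, adjusted p = 0.288) and rho = 0.709 (permutation p = 0.04, adjusted p = 0.48). That relation fell to r = 0.499 without Void mouse 5 and DHT mouse 1, and it was 0.985 among void-treated and 0.353 among DHT-treated females. Igfbpl1 and Tbr1 ran in opposite directions with r = -0.814 (permutation p = 0.0156, adjusted p = 0.288) and rho = -0.721 (permutation p = 0.0360, adjusted p = 0.48), and r was -0.835 without Void mouse 5 and DHT mouse 6. For Eomes and Sox4 r was -0.742 (permutation p = 0.0458, adjusted p = 0.370) and rho was -0.612 (permutation p = 0.0983, adjusted p = 0.494), and r was -0.363 without Void mouse 5 and DHT mouse 1.

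The 9 genes were also set against the summed level of 11 lists of cell type markers, a choice made after their values were seen, which gave 99 relations. None passed an adjusted p of 0.05 in the exact permutation test within groups. Those with an unadjusted p of r under 0.05 are given here, and that of Hopx with the astrocyte markers beside them. Tbr1 followed the neocortex markers with r = 0.904 (permutation p = 0.00188, adjusted p = 0.0928) and rho = 0.867 (permutation p = 0.00139, adjusted p = 0.138), and r was 0.813 without Void mouse 5 and DHT mouse 5. Eomes ran against the astrocyte markers with r = -0.878 (permutation p = 0.000556, adjusted p = 0.055) and rho = -0.830 (permutation p = 0.0148, adjusted p = 0.539), and r was -0.656 without Void mouse 5 and DHT mouse 1. Igfbpl1 ran against the astrocyte markers, with r = -0.730 (permutation p = 0.0286, adjusted p = 0.566) and rho = -0.697 (permutation p = 0.0494, adjusted p = 0.539), and r was -0.303 without those mice. With the subventricular zone markers Igfbpl1 had r = 0.731 (permutation p = 0.0124, adjusted p = 0.410) and rho = 0.648 (permutation p = 0.0546, adjusted p = 0.539), and r was 0.339 without Void mouse 4 and DHT mouse 6. Dcx ran against the markers of oligodendrocyte precursors with r = -0.692 (permutation p = 0.0351, adjusted p = 0.580), and r was -0.891 without DHT mice 5 and 6. Against the microglial markers Dcx had r = -0.585 (permutation p = 0.0495, adjusted p = 0.580), and r was -0.330 without Void mouse 10 and DHT mouse 1. Neurod1 ran against the lymphocyte markers with r = -0.591 (permutation p = 0.0260, adjusted p = 0.566), and r was -0.488 without Void mouse 10 and DHT mouse 2. For Hopx and the astrocyte markers r was 0.503 (permutation p = 0.175, adjusted p = 0.580) and rho was 0.164 (permutation p = 0.678, adjusted p = 0.913), and r was -0.129 without Void mouse 5 and DHT mouse 1.

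**Figure D4:**
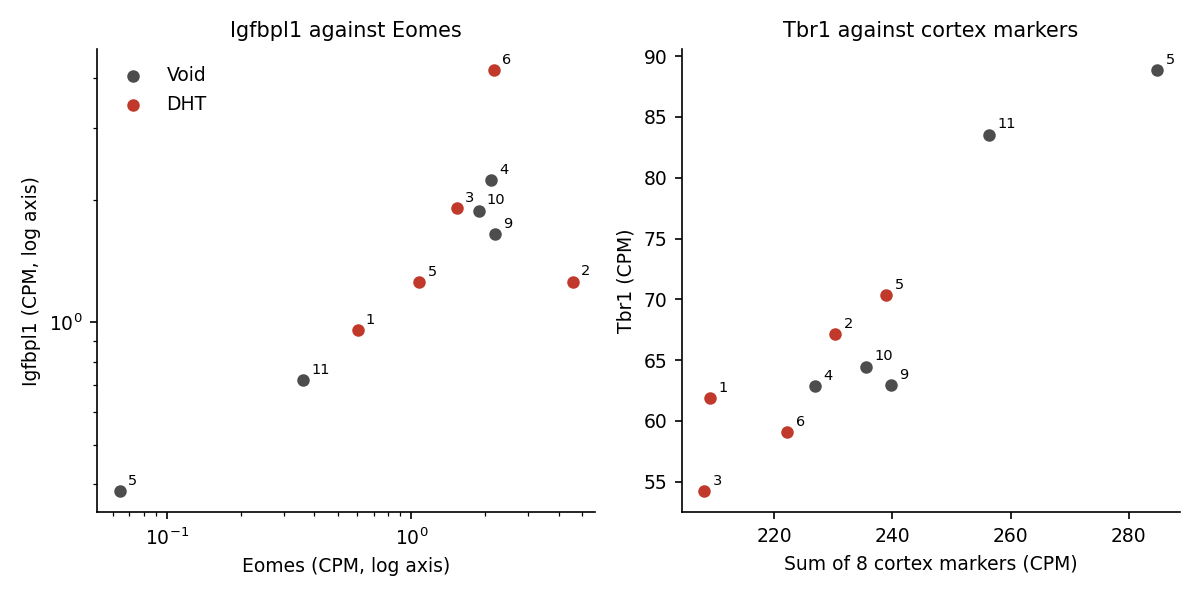
Left, Igfbpl1 against Eomes in CPM on logarithmic axes, and right, Tbr1 in CPM against the summed CPM of 8 neocortex markers, with 1 point per mouse, grey for void and red for DHT. Void mice 5 and 11 lie at the low end on the left, at 0.0639 and 0.359 CPM of Eomes, and at the high end on the right, at 88.8 and 83.6 CPM of Tbr1.

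The other genes of the lineage were followed by 76 genes in 6 lists: stem cells, progenitors, proliferation, immature neurons, mature granule neurons and signals of the niche. Of these 3 were called higher with DHT and 1 lower, against 5.22% and 0.261% of all genes tested. Of all 17622 genes tested, 9227 had a positive log2 fold change. In the stem cell list 1 of 16 genes was called, 13 had a positive log2 fold change, and the median was 0.11. The gene called was Vim, the intermediate filament vimentin of radial glia, reactive astrocytes and vessels. It was at 35.5, 50.5, 41.2, 41.1 and 42.5 CPM in Void mice 4, 5, 9, 10 and 11 and at 93.7, 47.1, 89.0, 69.6 and 74.8 CPM in DHT mice 1, 2, 3, 5 and 6. DHT mouse 2 lay within the void range and the other 4 lay above it. Its log2 fold change was 0.83 (SE 0.16, edgeR's quasi-likelihood test, adjusted p = 0.0131). Sox9, a factor of neural stem cells and astrocytes, had a log2 fold change of 0.32 and an adjusted p of 0.0512 in edgeR. The transcription regulator gene Id4, the most abundant of the list at 100 CPM with void and 107 CPM with DHT, had one of 0.10 and an adjusted p of 0.578.

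Of 8 progenitor genes, 6 were tested, 0 were called by edgeR's quasi-likelihood test and 1 had an unadjusted p under 0.05, with a median log2 fold change of -0.10. Neurod4 and Tfap2c were below the filter on low counts. The RNA-binding protein gene Elavl4 was at -0.30 and Insm1, a zinc-finger factor of progenitors, at -0.21 on the log2 scale, with adjusted p of 0.250 and 0.391 in edgeR. Neurod6, which mature pyramidal neurons express strongly, was at 0.03 (adjusted p = 0.911 in edgeR). With void its mean was 226 CPM, and those of Neurod2, Elavl2 and Elavl4 were 149, 121 and 120 CPM. Insm1 and Neurog2 were far lower, at 6.1 and 0.68 CPM. What mature neurons contributed to the median of this list was not tested. In the proliferation list all 7 genes tested had positive log2 fold changes, with a median of 0.33, and 1 was called. This was Cdk1, the kinase that drives entry into mitosis in any dividing cell.

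Cdk1 was at 0.275, 0.288, 0.341, 0.184 and 0.210 CPM in Void mice 4, 5, 9, 10 and 11 and at 0.765, 0.469, 1.03, 0.628 and 0.685 CPM in DHT mice 1, 2, 3, 5 and 6. The groups did not overlap, at levels where 0.292 CPM corresponds to 10 counts in the median library. Every DHT-treated female was above that level, and among void-treated females only mouse 9 was. Cdk1 therefore passed the filter on low counts through its DHT values, and its separation is not independent of that filter. A separation in this direction was found in 5.39% of all genes tested. Its log2 fold change was 1.45 (SE 0.26, edgeR's quasi-likelihood test, adjusted p = 0.0104). Mki67, the gene of the Ki-67 antigen of cycling cells, was at 1.81 ± 0.250 CPM with void and 2.87 ± 0.835 CPM under DHT (SD, n = 5 each). That difference was 0.67 on the log2 scale (adjusted p = 0.0872 in edgeR). The cyclin gene Ccnd2 was at 0.07 on the log2 scale (adjusted p = 0.745 in edgeR). These genes mark dividing cells of any kind, and microglial markers were higher in the same mice. Which cells carried them was not tested.

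Among 18 genes of immature neurons, 0 were called by edgeR's quasi-likelihood test, 1 had an unadjusted p under 0.05 in the higher direction and 2 in the lower, and the median log2 fold change was -0.07 with 13 negative. Dpysl5 and Dpysl3, which encode collapsin response mediators of growing axons, were at -0.24 and -0.15 on the log2 scale with adjusted p of 0.149 and 0.241 in edgeR. The adhesion molecule gene Ncam1, the most abundant of the list, was at -0.10 (adjusted p = 0.419 in edgeR). Its mean with void was 395.5 CPM, against 26.97 CPM for Dcx. Tubb3 of this list was also counted among the general neuron markers. What mature neurons contributed to these values was not tested. Dcx had a more negative fold change than any gene of the immature neuron list, which ran from -0.25 to 0.37. Among 10 genes of mature granule neurons, 8 had a negative log2 fold change, the median was -0.14 and 1 was called lower. It was Trpc6, a calcium-permeable channel enriched in dentate granule neurons.

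Trpc6 was at 23.5, 22.4, 19.9, 20.1 and 24.5 CPM in Void mice 4, 5, 9, 10 and 11 and at 15.8, 19.6, 16.1, 17.5 and 16.2 CPM in DHT mice 1, 2, 3, 5 and 6. Every DHT-treated female was below every void-treated female, a separation found in this direction in 0.88% of all genes. Its log2 fold change was -0.37 (SE 0.09, edgeR's quasi-likelihood test, adjusted p = 0.0256). The call was lost without Void mouse 4, 5 or 11 and without DHT mouse 1, 3 or 6, with adjusted p from 0.0528 to 0.0754. Prox1 was at -0.16 (adjusted p = 0.624 in edgeR), and Dsp, which encodes desmoplakin and is a marker of dentate granule neurons, was at 0.41 (adjusted p = 0.363 in edgeR).

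Of 16 niche signals, 1 was called and the median log2 fold change was -0.05. Bmp6, a bone morphogenetic protein of the family that holds stem cells in quiescence, was at 11.6, 9.33, 18.02, 7.67 and 12.3 CPM in Void mice 4, 5, 9, 10 and 11. It was at 31.0, 21.2, 25.2, 23.4 and 28.0 CPM in DHT mice 1, 2, 3, 5 and 6. The groups did not overlap, as in 5.39% of all genes tested in this direction. The log2 fold change was 1.13 (SE 0.19, edgeR's quasi-likelihood test, adjusted p = 0.00965). Adjusted for the choroid plexus score it was 0.66, and its adjusted p in edgeR was 0.664. Its relative Bmp4 was at 0.71 (adjusted p = 0.167 in edgeR), and Dkk3, a secreted protein related to Wnt antagonists and the most abundant of the list, was at -0.08 (adjusted p = 0.512 in edgeR). None of the 4 calls in these lists was made with either covariate or without Void mice 5 and 11 together, where their adjusted p in edgeR ran from 0.0728 to 0.810.

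**Figure D5:**
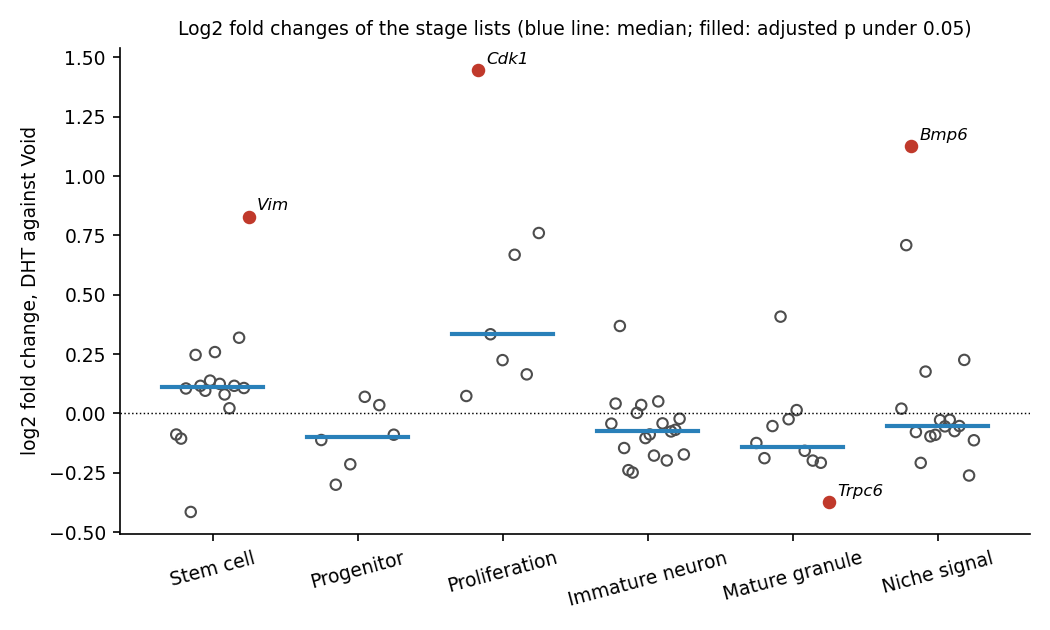
Log2 fold change, DHT against void (vertical axis), of every tested gene in the 6 lineage lists, 1 point per gene, filled red where the adjusted p is under 0.05, with the median of each list as a blue line. Medians run from -0.14 in mature granule neurons to 0.33 in proliferation, and 4 genes are filled: Vim, Cdk1, Bmp6 and Trpc6.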

How the data were processed

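Hippocampal RNA of 10 female P301S mice, 5 void and 5 DHT, was sequenced as 1 mRNA library per mouse. Per the study's methods and the submitters' processing notes, reads were trimmed with HTStream, aligned with STAR 2.7.10b and counted. The methods name mm10 and the notes name mm39 and GRCm39, so no gene coordinates are given apart from the promoter windows, which are RefSeq's. The authors deposited raw counts per gene without normalization. Annotation release, strand setting and handling of reads with several matches were not given in the sources used here. Symbols came from GENCODE M21, which matched 51948 of 56884 identifiers once versions were dropped, and 99.6% of all counts.

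Groups came from the sample labels. In R 4.3.3, edgeR 4.0.16 was run on the counts with TMM normalization, its expression filter (17622 genes), its quasi-likelihood test, and p adjusted by Benjamini and Hochberg's method. DESeq2 1.42.0 was an alternative. Standard errors were taken from each log2 fold change and its F statistic. Log2 values of single genes for ratios and correlations used a prior count of 2. Log2 values of the summed marker levels used no prior count. Permutation tests are two-sided and exact. Those of ratios, over 252 regroupings, were run in R. Those of correlations, over 14400 permutations within groups, were run in Python 3.11.15 with numpy 2.4.6 and scipy 1.17.1. Mice were taken as replicates, and total counts were 27188854 to 47113661 per mouse. The count tests and the correlation test were tested on simulated data.

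The 9 genes and all lists were chosen with earlier results of these data known. From each lineage list the genes named are those with an adjusted p under 0.05, the 2 with the lowest p and the most abundant one, and for likeness to Dcx the 5 genes with the highest correlation. Gfap and individual marker sums were named after their values were seen. The result for 1 marker gene is not reported here. The astrocyte covariate and the fit without Void mice 5 and 11 were added after seeing the data.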

Additional observations from a re-analysis of the deposited data

How the results depend on the processing

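No paired analysis was run because the sample labels give no pairing or litter of the mice. DESeq2, its size factors in edgeR, library size alone and either other filter each called Hopx and no other of the 9 genes higher, and DESeq2 called 2 lower in place of 0. The choroid plexus covariate, the astrocyte covariate and the fit without Void mice 5 and 11 called 0 of the 9, 0 genes of the lineage lists and 0 of all genes in either direction in edgeR, and the cause was not tested. At an unadjusted p under 0.05 these 3 fits had 960, 1721 and 1804 genes higher and 243, 553 and 894 lower, and among the 9 genes 0, 3 and 1 higher and 0, 2 and 2 lower. The 3 higher with the astrocyte covariate were Hopx (0.27), Eomes (1.92) and Igfbpl1 (1.28), and the 2 lower were Dcx (-0.42) and Tbr1 (-0.31). With the added limit of a log2 fold change beyond 1, 382 genes were higher and 4 lower, against 920 and 46, 0 of the 9 were called, and 0 of the lineage lists were lower. DESeq2 called 1220 genes higher and 226 lower over the whole table, and 5 higher and 2 lower in the lineage lists. Leaving out each mouse in turn gave 351 (without Void mouse 11) to 1072 genes higher, 5 (without Void mouse 11) to 77 lower (without DHT mouse 2), 0 to 1 of the 9 higher and 0 lower, and 3 to 6 lineage genes higher (6 without DHT mouse 2) and 0 to 1 lower. The count of genes higher moved by over 1.5 times without Void mouse 4 (493), 10 (552) or 11 (351) and without DHT mouse 1 (395) or 3 (518). Leaving out a mouse gave -0.41 to -0.09 for the ratio of Dcx to Prox1 and 0.57 to 1.79 for that of Eomes to Dcx.

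With the choroid plexus covariate the log2 fold change turned sign for Eomes (-0.98), Igfbpl1 (-0.57), Draxin (0.29), Tbr1 (0.16), Elavl4 (0.021), Neurod6 (-0.028) and Ccnd2 (-0.19). Without Void mice 5 and 11 it did so for Eomes (-0.080), Igfbpl1 (-0.056), Draxin (0.089), Neurod6 (-0.019) and Ccnd2 (-0.052). Leaving out a mouse turned Sox4 (range -0.012 to 0.075, without DHT 5), Igfbpl1 (-0.034 to 0.73, without DHT 6), Draxin (-0.16 to 0.027, without Void 11, DHT 2 or DHT 3), Neurod6 (-0.056 to 0.081, without Void 5 or DHT 1) and Ccnd2 (-0.011 to 0.13, without Void 11). None of these genes was called in any of these fits. Of 484 values of single genes under other settings, 426 kept their direction and side of the threshold. Over all genes the median log2 fold change was 0.0094 with TMM, -0.018 with DESeq2's size factors and 0.019 with library size alone. Sox11 moved from -0.17 to -0.05 with the choroid plexus covariate. With 16 to 31 counts of Draxin per mouse, a difference within its interval was not detectable at this depth. Eomes (CV 77.6% and 78.0% in the groups) and Igfbpl1 (57.5% and 68.6%) varied widely between mice.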

Other observations

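The genes whose levels followed Dcx most closely over the 10 mice, after group means were subtracted, were Lysmd2 (r = 0.946), Gm5977 (r = 0.946), Commd7 (r = 0.945), Ppa1 (r = 0.940) and Pgap1 (r = 0.939), of 17622 genes ranked. None belonged to the lineage lists, and Sox11 ranked 543 and Sox4 2405 by the same measure. These values are a description over 10 mice and were not tested.

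No mouse stood apart from its own group in any of the 9 genes by Dixon's 95% limit for 5 mice. Over 58 groups of values examined 0 were beyond it, where chance gives about 2.9.

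The remaining marker lists were as follows. The 5 ependymal genes all had positive log2 fold changes and 0 were called by edgeR, where 3 had an unadjusted p under 0.05, with sums of 11.9 to 35.3 CPM under void and 36.6 to 47.9 CPM under DHT that did not overlap. Of 8 markers of oligodendrocyte precursors and 8 of neurons edgeR called 0, with 0 and 1 lower at an unadjusted p under 0.05. Of 5 Cajal-Retzius genes tested 0 were called, with 2 higher and 1 lower at an unadjusted p under 0.05 in edgeR. Of 5 genes tested that mark the interneuron lineage of the subventricular zone 0 were called and 0 had an unadjusted p under 0.05 in edgeR, with sums of 34.99 to 57.0 CPM under void and 27.1 to 62.8 CPM under DHT. Of 8 striatal and thalamic genes 1 was called higher, Ppp1r1b. The 11 lymphocyte markers were all below the filter on low counts.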
